A study of Saccharomyces cerevisiae with 9 samples.

Results

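The pericentromeric nucleosomes described here are the nucleosome calls of budding yeast (Saccharomyces cerevisiae) whose WT dyad, the centre of the nucleosome, lay within 10 kb of the centromere of its chromosome. They were chosen by position alone, from the row-paired WT and ioc3Δ call tables after repeated rows were dropped, and they numbered 1383 of 51917 paired calls on 16 chromosomes. The 5403 calls lying 10 to 50 kb from a centromere served for comparison. The ioc3Δ cells lack IOC3, the ioc3ΔcHLB cells carry a version of IOC3 whose HLB (helical linker-DNA binding) domain is truncated in part, and the WT cells carry full-length IOC3. All strains share the BY4742 background and were grown in YPD, with 3 samples per strain. Every sample is annotated with a FLAG epitope, ioc3Δ included, whereas the methods place that tag on IOC3 and on its truncated form. Only tables merged over the samples of a strain were used, so no value has a spread between cultures, no difference between strains could be tested across samples, and every interval given below covers variation among calls or counting error within the merged libraries.

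Budding yeast has point centromeres, in which a short DNA element carries 1 specialised nucleosome containing the histone H3 variant Cse4. The element is made of CDEI, bound by Cbf1, the AT-rich CDEII, and CDEIII, which is bound by the CBF3 complex and is needed for kinetochore assembly. The flanking pericentromeric chromatin consists of ordinary genes and nucleosomes and is enriched in cohesin. Ioc3 is the accessory subunit that forms the ISW1a complex with the ATPase Isw1, a remodeler that slides nucleosomes and sets their spacing.

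As a check of the deletion, the 7 paired calls within IOC3 (YFR013W, chromosome VI, 169922 to 172285) held 0.574% of the WT occupancy in ioc3Δ. In the table labelled ioc3ΔcHLB the calls of IOC3 held 0.680%, although the truncated strain should retain most of the gene. For the 1373 pericentromeric calls that the WT tables of both comparisons share, 60.9% of the occupancies in that table lay within 1% of those in ioc3Δ, whereas 2.04% of the ioc3Δ occupancies lay within 1% of WT. The called dyads matched less often. They were at the same base in that table and in ioc3Δ for 11.3% of these calls, and in ioc3Δ and WT for 5.61%. Because of the occupancies, the table is called by its label and treated as a repeat of the ioc3Δ sample, and its values are kept apart. Occupancy is the dyad signal of a call relative to the genome-wide coverage. All occupancies of the pericentromeric calls were whole multiples of 0.199 in ioc3Δ and of 0.138 in WT to within 1% of these steps, which were taken as 1 fragment. By this measure the pericentromeric calls held 628310 fragments in ioc3Δ (median 247 per call) and 877527 fragments in WT (median 441 per call).

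The centromere elements are shown first because the nearest calls are placed relative to their midpoints. Membership and the distance ranges were counted from the rounded centromere positions of the membership rule, at most 45.5 bp from these midpoints. The sequences come from the RefSeq copy of the R64 genome, the same assembly as sacCer3, and read from CDEI to CDEIII on the annotated strand. CDEI at the start and CDEIII at the end are in capitals and CDEII is in lower case. CEN5 (chrV:151987-152104, plus strand) has the widest gap between its nearest calls and CEN6 (chrVI:148510-148627, plus strand) the closest single call. CEN9 (chrIX:355629-355745, plus strand) and CEN13 (chrXIII:268031-268149, plus strand) have the highest and the lowest AT content of CDEII, at 97.6% and 86.9%.
CEN5: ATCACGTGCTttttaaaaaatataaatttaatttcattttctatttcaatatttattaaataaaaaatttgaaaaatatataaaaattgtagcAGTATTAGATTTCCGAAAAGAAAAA
CEN6: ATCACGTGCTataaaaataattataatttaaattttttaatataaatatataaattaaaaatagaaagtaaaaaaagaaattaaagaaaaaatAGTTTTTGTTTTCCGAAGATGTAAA
CEN9: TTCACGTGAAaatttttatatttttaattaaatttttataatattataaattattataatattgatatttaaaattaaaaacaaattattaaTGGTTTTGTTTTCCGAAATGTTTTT
CEN13: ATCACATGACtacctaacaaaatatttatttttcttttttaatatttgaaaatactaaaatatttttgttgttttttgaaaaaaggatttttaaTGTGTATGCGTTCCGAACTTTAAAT

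The 16 elements were 111 to 120 bp long, and their AT content over the whole element was 79.8% to 88.9% (median 86.0%). The letters TCACNTG, searched on both strands, were present in CDEI of 16 of 16 centromeres, and the letters CCGAA in CDEIII of 16 of 16. In windows of 118 bp placed every 1 kb from 11 to 50 kb on each side (1280 in all), TCACNTG occurred in 3.83%, CCGAA in 12.2% and both in 0.391%. The searches were made in CDEI and in CDEIII, which do not overlap, and in the whole of each window. Finding the letters in stretches annotated as CDEI and CDEIII describes the annotation, and the window shares are no test of it.

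No paired call had its WT dyad inside any of the 16 centromeres, and no call overlapped one. Within 350 bp of the midpoint 11 of 16 centromeres had no call, in this WT table and in the WT table of the other comparison, against 8.28% of the 1280 windows of the same width from 11 to 50 kb. The width was chosen with the positions of the calls known. The nearest call on the CDEI side lay 192.5 bp (CEN6) to 1078 bp (CEN5) from the midpoint, with a median of 397.5 bp. On the CDEIII side it lay 387 bp (CEN10) to 1708 bp (CEN5) away, with a median of 665.8 bp. The gap between the nearest calls of both sides was 670 bp at CEN7, the narrowest, and 2786 bp at CEN5, the widest, so the stretch without calls was longer than the centromere element at 16 of 16 centromeres. The tables list only calls that were paired between WT and ioc3Δ, so a stretch without a call may still have held fragments.

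**Figure D1:**
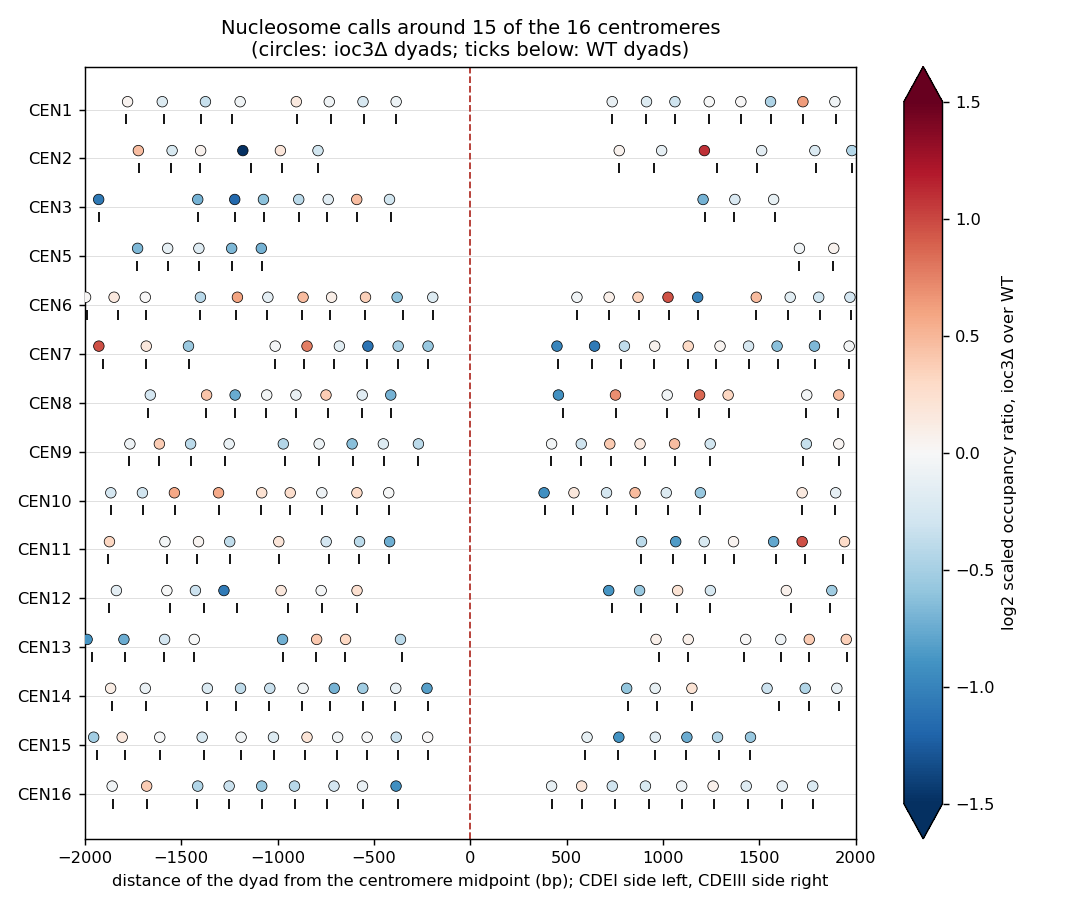
Dyads of the paired calls around 15 of the 16 centromeres, against their distance from the centromere midpoint in bp, with the CDEI side on the left; circles mark ioc3Δ dyads, coloured by the log2 of the scaled occupancy ratio, and ticks below them mark WT dyads. The centre is empty at 15 of 15 centromeres shown, the nearest call lies 192.5 bp away at CEN6, and most circles next to the gap are blue, which is a ratio below 1 (26 of 30).

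Beyond the gap the calls resumed at the usual density. There were 0.375 calls per kb within 0.25 kb of the centromere, 2.63 from 0.25 to 0.5 kb, 4.50 from 0.5 to 0.75 kb and 5.13 from 0.75 to 1 kb. Over the whole 10 kb the density was 4.32 calls per kb, against 4.22 from 10 to 50 kb. The median occupancy of the pericentromeric calls was 49.2 in ioc3Δ (interquartile range 31.5 to 82.0) and 60.9 in WT (40.7 to 94.6). In the calls 10 to 50 kb away it was 53.6 in ioc3Δ and 63.0 in WT, and over all calls 50.2 in ioc3Δ and 58.3 in WT. The SD of the dyads, which is small where a nucleosome is sharply positioned, had a median of 28.8 bp in ioc3Δ and 25.9 bp in WT for the pericentromeric calls. In the calls 10 to 50 kb away it was 29.0 bp in ioc3Δ and 26.1 bp in WT. The windows of 10 kb held 175 protein-coding genes, or 54.7 per 100 kb against 50.4 per 100 kb from 10 to 50 kb. They held fewer tRNA genes (1.88 against 4.53 per 100 kb) and LTRs (3.44 against 5.70) and more annotated replication origins (5.00 against 2.89). Of the pericentromeric calls, 1264 lay in coding sequence, 117 outside it and 2 in LTRs.

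The calls next to the gap had lower occupancy in ioc3Δ than in WT at most centromeres. Ratios of ioc3Δ over WT occupancy are given after division by their median over all paired calls, 0.892 (-0.17 on the log2 scale), so that a ratio of 1 is the change of a typical call. Over the 32 nearest calls, 1 on each side of each centromere, the median occupancy was 34.5 in ioc3Δ and 52.7 in WT. Their scaled ratio had a median of 0.757 (95% interval 0.610 to 0.928) and ran from 0.312 to 1.18. With the nearest call at or above the lower quartile of occupancy in both strains taken instead, which replaced 14 of the 32, the median was 0.923. It was below 1 in 28 of 32 calls, and in 18 of these the exact binomial 95% interval of the fragment counts lay below 1, while it lay above 1 in 1 call. A ratio at least 1.5-fold lower was found in 13 of 32, against a background of 10.8% over all calls. One at least 1.5-fold higher was found in 0 of 32, against a background of 11.5%. The lowest count behind any of the 32 unfiltered values was 55 fragments in ioc3Δ and 138 in WT.

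Low calls were found on both sides of CEN7. The CDEI-side call of CEN7 in EFM5, a gene for a methyltransferase that modifies translation elongation factor eEF1A, had 22.9 in ioc3Δ and 38.0 in WT. The CDEIII-side call of CEN7 had 47.4 in ioc3Δ and 105.8 in WT, a ratio of 0.503 (0.433 to 0.582). At CEN14 the call in DOM34, which encodes a factor that rescues stalled ribosomes, had 36.3 in ioc3Δ and 72.2 in WT, a ratio of 0.563. At CEN16 the call in HAT1, the gene of a histone acetyltransferase, had 16.5 in ioc3Δ and 35.1 in WT, a ratio of 0.529. These calls lay 217 to 453 bp from their centromere midpoints, and all of them had ratios below that of a typical call.

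Other centromeres did not follow. At CEN15 the CDEI-side call in RRP6, which encodes a nuclear exosome subunit, had an occupancy of 73.7 in ioc3Δ and 82.6 in WT, a scaled ratio of 1.00 (counting interval 0.877 to 1.14) at 219 bp. At CEN10 the CDEI-side call had 176.7 in ioc3Δ and 199.1 in WT, a ratio of 0.996, whereas the CDEIII-side call of the same centromere had 13.95 in ioc3Δ and 29.6 in WT, a ratio of 0.529. At CEN12 the CDEI-side call in YLR001C had 86.3 in ioc3Δ and 81.7 in WT, a ratio of 1.18 (1.04 to 1.34). It was the only nearest call whose interval lay above 1. It also had the lowest AT content of the 32, 53.7%. The median AT content of the nearest calls was 64.0%, against 61.2% over all pericentromeric calls, and its part in the lower ratio was not tested. The next calls outwards were closer to 1. The median ratio was 0.905 for the second calls on each side, with 22 of 32 below 1, and 0.899 for the third calls, with 21 of 32 below 1.

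On the CDEI side the nearest dyads lay slightly further from the centromere in ioc3Δ. The displacement away from the centromere had a median of 2 bp and ran from -4 to 12 bp. Of these dyads 14 of 16 were displaced away, 1 towards and 1 in the same place, against 46.0% displaced away over all calls. Among the second calls on this side 10 of 16 were displaced away, and among the third calls 9 of 16. On the CDEIII side 7 of 16 were displaced away and 8 towards, with a median of -0.5 bp and a range of -26 to 13 bp. The per-call position test, which used the dyad shift, the SDs and the occupancies as numbers of observations, was passed at an unadjusted p under 0.01 by 0 of the 32 nearest calls, against a background of 21.1% over all calls. The SDs of the nearest calls had medians of 25.6 bp in ioc3Δ and 22.6 bp in WT, and 6 of the 32 dyads were displaced by 10 bp or more, against a background of 28.4%.

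Occupancy was also lower over the 10 kb window as a whole. The scaled ratio of the 1383 calls had a median of 0.925 (95% interval over calls 0.908 to 0.939), against 0.997 (0.986 to 1.01) in the calls 10 to 50 kb away. It was below 1 in 62.04% of the pericentromeric calls and in 50.3% of the comparison calls. An occupancy at least 1.5-fold lower was found in 199 calls (14.4%), against a background of 10.8% over all calls, and at least 1.5-fold higher in 102 calls (7.38%), against a background of 11.5%. Within these calls the shares of total occupancy were 1.75% in ioc3Δ and 2.00% in WT. The split depends on the scaling: without scaling, 74.8% of the pericentromeric calls were below 1, with 315 lower and 67 higher by 1.5-fold. After division by the ratio of summed occupancies, 88.1% were below 1, with 611 lower and 30 higher. The calls 10 to 50 kb away had 64.2% and 80.4% below 1 under the same settings, so the pericentromeric share was the larger under each. The difference between the windows could not be tested across cultures.

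The ratio was lowest within 0.5 kb of the centromere and rose unevenly outwards. It had a median of 0.677 within 0.25 kb, which holds only 3 calls, 0.755 from 0.25 to 0.5 kb (21 calls), 0.921 from 0.5 to 0.75 kb (36 calls) and 0.963 from 0.75 to 1 kb (41 calls). These ranges are counted from the rounded centromere positions. The CDEI-side call of CEN15, 219 bp from its midpoint with a ratio of 1.00, therefore fell in the range from 0.25 to 0.5 kb. With only 3 calls, the innermost median depends on this origin. From 1 to 8 kb each distance range had a median between 0.869 and 0.935, with the upper end of its interval below 1. It was 1.01 from 8 to 9 kb (0.955 to 1.07) and again below 1 from 9 to 10 kb, at 0.944 (0.880 to 0.985, 136 calls). Just outside the limit, from 10 to 11 kb, it was 0.982 (137 calls). From 11 to 50 kb the medians of the distance ranges lay between 0.966 and 1.03. Among these, the interval lay below 1 from 11 to 15 kb (0.917 to 0.995) and from 25 to 30 kb (0.936 to 0.992). It lay above 1 from 30 to 40 kb (1.005 to 1.047). Leaving out the calls within 1 kb gave a median of 0.926, so the lower ratio did not rest on the calls next to the gap.

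**Figure D2:**
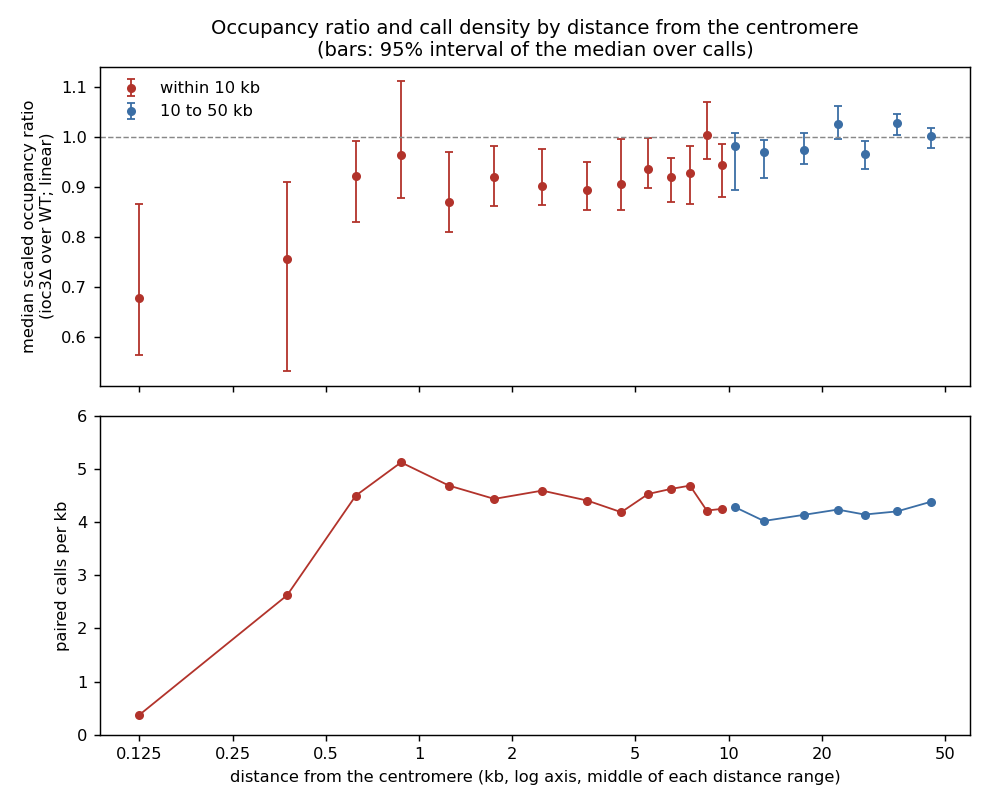
Upper panel: median scaled occupancy ratio, ioc3Δ over WT, against distance from the centromere on a log axis in kb, with bars for the 95% interval of the median over calls (for the innermost 3 calls, their range). Lower panel: paired calls per kb. Distances run from the rounded centromere positions, which leaves the CEN15 call 219 bp from its midpoint out of the innermost range. The ratio is 0.677 within 0.25 kb and 0.755 from 0.25 to 0.5 kb, stays below 1 to 8 kb and lies between 0.966 and 1.03 from 11 to 50 kb; the density is 0.375 calls per kb at the centre and 5.13 at 0.75 to 1 kb.

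The lower ratio was seen around most centromeres. By chromosome the median ratio of the 74 to 97 pericentromeric calls ran from 0.846 to 0.977 (median 0.933) and was below 1 on 16 of 16 chromosomes. In the calls 10 to 50 kb away it ran from 0.939 to 1.13 and was below 1 on 9 of 16. On 14 of 16 chromosomes the pericentromeric ratio was the lower one, the exceptions being chromosomes VIII (0.977 against 0.960) and XV (0.955 against 0.945). The 95% intervals of both windows did not overlap on 5 of 16 chromosomes. Chromosome XVI had the lowest pericentromeric ratio, 0.846 (0.812 to 0.919), against 0.982 (0.945 to 1.03) further out. Chromosome I had 0.934 (0.895 to 0.992) near the centromere and 1.13 (1.07 to 1.18) further out.

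**Figure D3:**
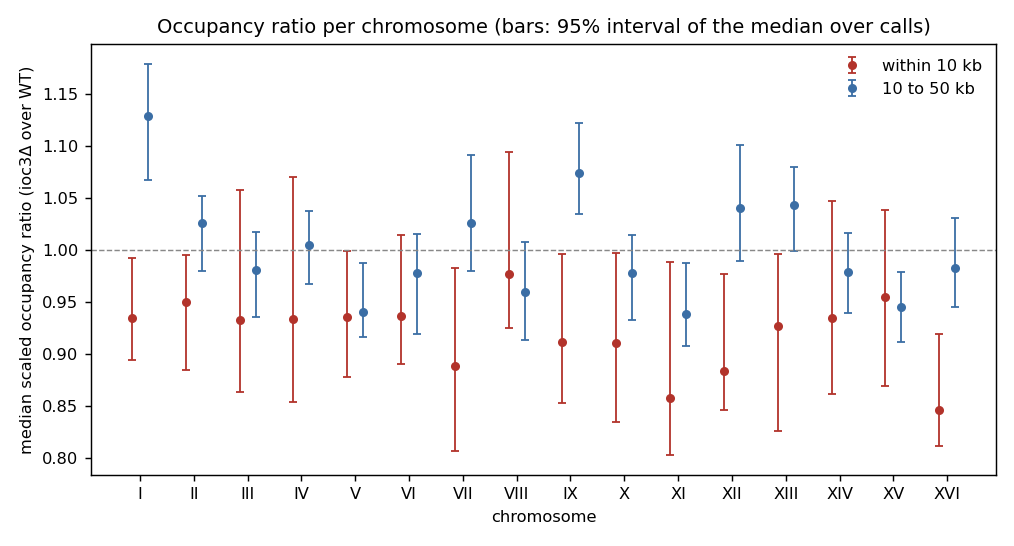
Median scaled occupancy ratio, ioc3Δ over WT, per chromosome for calls within 10 kb of the centromere (left point) and 10 to 50 kb away (right point), with bars for the 95% interval of the median over calls. The left point is below 1 on 16 of 16 chromosomes and below the right point on 14 of 16.

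Base composition moved with the ratio. All paired calls were put into 4 classes of AT content, cut at the quartiles. Over all calls the median scaled ratio was 1.29 in the class with the lowest AT content (34.7% to 57.1%) and 0.754 in the class with the highest (64.6% to 87.8%). Pericentromeric calls were richer in AT: 27.5% of them fell in the highest class, against 21.2% of the calls 10 to 50 kb away. Within the lowest class the pericentromeric ratio was 1.20 (1.16 to 1.24) and the ratio 10 to 50 kb away 1.29 (1.27 to 1.31). In the next class these ratios were 0.978 (0.955 to 1.00) near the centromere and 1.03 (1.01 to 1.04) further out. In the one after it they were 0.863 (0.846 to 0.885) near the centromere and 0.903 (0.891 to 0.916) further out. In the highest class they were 0.738 (0.705 to 0.776) near the centromere and 0.723 (0.711 to 0.741) further out. The pericentromeric ratio was thus the lower one in the 3 classes with less AT and not in the highest one. AT content was not matched within a class: in the lowest class its median was 55.1% near the centromere and 54.4% further out, and in the other classes the medians of both windows were equal. The part of base composition in the lower ratio was not tested further. Outside coding sequence the median ratio was 0.736 near the centromere and 0.7502 further out, with overlapping intervals, and inside coding sequence it was 0.938 (0.922 to 0.956) and 1.02 (1.01 to 1.03). In each of 4 classes of WT occupancy and of WT SD, cut in the same way, the pericentromeric ratio was below that of the calls 10 to 50 kb away.

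**Figure D4:**
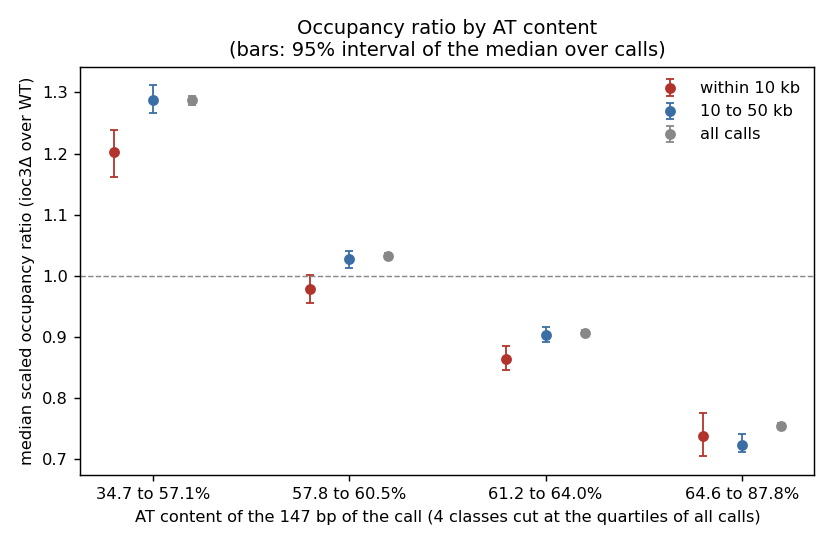
Median scaled occupancy ratio, ioc3Δ over WT, by AT content of the call, in 4 classes cut at the quartiles of all calls, for calls within 10 kb of a centromere (left), 10 to 50 kb away (middle) and all calls (right), with bars for the 95% interval of the median over calls. The ratio over all calls is 0.754 in the highest class; the left point is below the middle one in the 3 classes with less AT (1.20 against 1.29 in the lowest) and not in the highest (0.738 against 0.723).

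Dyads near the centromere were not displaced more than elsewhere. The dyad in ioc3Δ lay 10 bp or more from the WT dyad in 357 calls (25.8%), against a background of 28.4%, and 257 of 1380 tested calls (18.6%) passed the position test, against a background of 21.1%. These tests compare merged libraries and do not cover the spread between cultures. The median absolute displacement was 4 bp (95% interval 4 to 5 bp) near the centromere and 5 bp (4 to 5 bp) further out. The largest distance between the dyads of a pair was 72 bp, so longer moves are not in the tables. The displacement had little preference for a side: 48.3% of the pericentromeric dyads lay further from the centromere in ioc3Δ, 46.1% nearer to it and 5.57% at the same base, and the median was 0 bp on both arms. Of the tested calls, 143 (10.4%) passed the test with a displacement away from the centromere, against a background of 10.4%, and 114 (8.26%) with one towards it, against a background of 10.6%.

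The dyads were more spread out in ioc3Δ, near the centromere and elsewhere. The SD was higher in ioc3Δ in 79.0% of the pericentromeric calls, against a background of 77.3%, with a median difference of 2.61 bp (95% interval 2.42 to 2.83 bp), against 2.23 bp (2.14 to 2.35 bp) in the calls 10 to 50 kb away. It was at least 5 bp higher in 308 calls (22.3%), where the background was 23.0%, and at least 5 bp lower in 24 calls (1.74%), where the background was 2.48%. Among 1119 neighbouring pairs 100 to 250 bp apart in WT, the dyad-to-dyad distance had a median of 170 bp in ioc3Δ and 169 bp in WT. The change was a median of 0 bp (interquartile range -5 to 6 bp), with 522 distances (46.6%) longer and 493 (44.1%) shorter in ioc3Δ, against backgrounds of 45.9% and 42.8%.

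Along genes, the first nucleosomes after the start codon lay downstream of their WT positions, as they did away from the centromere. Of 144 coding genes longer than 560 bp whose start codon lay within 10 kb of a centromere, 143 had a +1 call, counted from the start codon. At +1 the median shift in the direction of transcription was 2 bp. It was 5 bp for the 135 genes with a +2 call, 3 bp for the 125 with a +3 call and 1 bp for the 113 with a +4 call. Genes 10 to 50 kb away had medians of 2, 4, 4 and 2 bp, and over all genes the medians were 2, 4, 4 and 3 bp. The +2 dyad lay downstream in 116 of 135 pericentromeric genes (85.9%) and upstream in 13, against 74.0% downstream 10 to 50 kb away and 78.7% over all genes. At +2 the dyads of 27 of 135 genes (20.0%) passed the position test, all of them downstream, against a background of 27.2% in either direction and 24.6% downstream. At +4 the test was passed downstream in 14 of 113 genes (12.4%), against a background of 18.5%, and upstream in 7 (6.19%), against a background of 4.09%. A +1 to +4 dyad past the test was present in 56 of the 143 genes (39.2%), below the background of 51.1% over all genes.

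**Figure D5:**
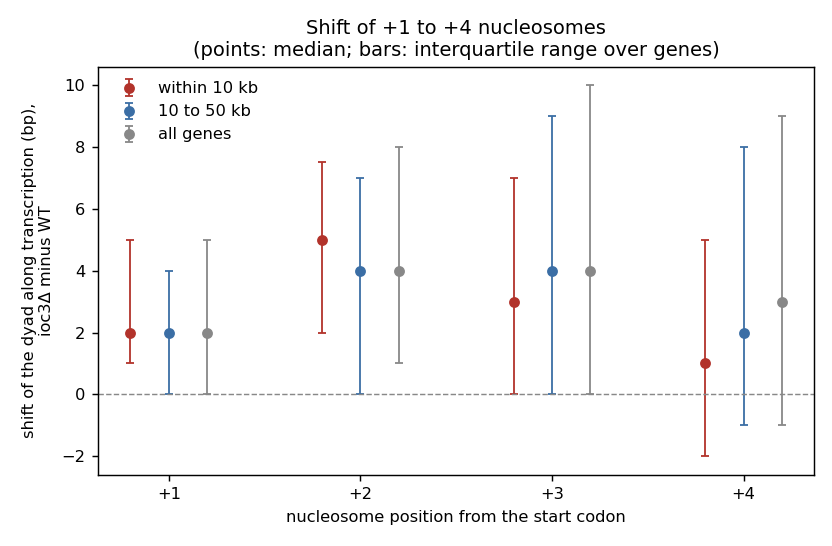
Shift of the ioc3Δ dyad relative to the WT dyad along transcription, in bp, at the +1 to +4 nucleosomes of genes whose start codon lies within 10 kb of a centromere (left), 10 to 50 kb away (middle) and of all genes (right); points are medians and bars interquartile ranges over genes. The pericentromeric medians are 2, 5, 3 and 1 bp, and the bars of the 3 groups overlap at every position.

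The gene with the largest +2 shift was SIS1 (YNL007C, chromosome XIV, 618507 to 619565, minus strand), which encodes an Hsp40 co-chaperone. Its +2 dyad lay at 619326 in ioc3Δ and at 619388 in WT, 62 bp further downstream, with an occupancy of 2207 in ioc3Δ and 572.8 in WT. The mean dyad of this call, in contrast to its called dyad, moved by 22 bp. NTH1 (YDR001C, chromosome IV), a neutral trehalase gene, had a +2 shift of 36 bp, from calls with an occupancy of 119.7 in ioc3Δ and 85.3 in WT, and a +3 shift of 17 bp that also passed the test. PAP1 (YKR002W), the gene of poly(A) polymerase, had a shift of 34 bp at +2 and 6 bp at +1, both past the test. GLO1 (YML004C), for glyoxalase I, had a +2 shift of 27 bp and YEA4 (YEL004W), for a nucleotide-sugar transporter, one of 24 bp, and neither had another of its +1 to +4 calls past the test. The mean dyads of these 4 genes moved less, by 10 to 21 bp at +2.

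Of 139 pericentromeric calls that passed the test with occupancies at or above the median of all calls in both strains, the 5 with the largest displacements all lay in coding sequence. In MNN1 (YER001W), a mannosyltransferase gene on chromosome V, the dyad moved by 70 bp away from the centromere, with occupancies of 92.6 in ioc3Δ and 100.1 in WT and broad SDs of 36.0 bp in ioc3Δ and 36.1 bp in WT. In SAG1 (YJR004C), the gene of alpha-agglutinin, it moved by 67 bp away, with 106 in ioc3Δ and 88.4 in WT. In NTH2 (YBR001C), a paralogue of NTH1, it moved by 66 bp towards the centromere, with 148.6 in ioc3Δ and 78.1 in WT. How reads shared by such paralogues were placed is not given in the sources used here. The SIS1 +2 call moved by 62 bp, and in YPI1 (YFR003C), for a regulator of protein phosphatase 1, the dyad moved by 59 bp away, with 160.2 in ioc3Δ and 62.1 in WT. These displacements are of the called dyad. They lie close to the 72 bp limit of the pairing, and the SDs of the 5 calls in ioc3Δ were 30.0 to 40.8 bp. The mean dyad of the SIS1 call moved by only 22 bp, and that of the others is not given.

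The largest rise and the largest fall of occupancy were neighbours, at the start of SIS1. Among 1377 pericentromeric calls with a WT occupancy of at least 10, the +2 call of SIS1 had the highest scaled ratio, 4.32 (counting interval 4.17 to 4.48). The call at its start codon, the +1 call, had the lowest, 0.249 (0.199 to 0.308), with an occupancy of 19.7 in ioc3Δ and 88.9 in WT and a dyad displaced by 3 bp. The other large rises were in YPI1 (2.89) and in HSE1 (YHL002W), an ESCRT-0 subunit gene on chromosome VIII, with 180.3 in ioc3Δ and 73.2 in WT (2.76). The other large falls lay outside coding sequence: one call upstream of CDC5, the polo-like kinase gene, had 23.9 in ioc3Δ and 95.5 in WT (0.281), and one between COX16 and OST1 had 4.98 in ioc3Δ and 18.5 in WT (0.302). The 3 calls with the largest falls had an AT content of 72.1% to 74.2%, and the 3 with the largest rises 51.0% to 59.2%.

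The 2 SIS1 calls are printed to show the difference in base composition between the calls with the largest changes. They are given on the plus strand of R64, and the capitals run from the WT dyad to the ioc3Δ dyad. The SIS1 +2 call (chrXIV:619315-619461) has 57.8% AT and the SIS1 +1 call (chrXIV:619501-619647) has 72.1%.
SIS1 +2 call: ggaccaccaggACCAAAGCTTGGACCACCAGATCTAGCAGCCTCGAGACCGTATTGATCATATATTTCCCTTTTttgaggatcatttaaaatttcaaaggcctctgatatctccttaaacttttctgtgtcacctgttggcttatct
SIS1 +1 call: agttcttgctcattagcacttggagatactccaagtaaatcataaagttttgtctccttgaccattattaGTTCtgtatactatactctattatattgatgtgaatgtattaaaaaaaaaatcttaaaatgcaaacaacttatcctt

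The pericentromeric calls with the highest WT occupancy were low in AT and had scaled ratios above 1. The call in STP22 (YCL008C, chromosome III), an ESCRT-I subunit gene, had 5231 in ioc3Δ and 3239 in WT, a scaled ratio of 1.81 at 40.8% AT. The call in MIX17 (YMR002W, chromosome XIII) had 3836 in ioc3Δ and 2160 in WT, a ratio of 1.99 at 44.9% AT. Those in ILV6 and CYR1, the genes of an acetolactate synthase subunit and of adenylate cyclase, had ratios of 1.64 and 1.74. All 4 dyads stayed within 5 bp of their WT positions. They were picked after their values were seen, because they are the 4 highest. At the other end, the lowest member had an occupancy of 0.598 in ioc3Δ, or 3 fragments, and such calls carry little information on a ratio.

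The table labelled ioc3ΔcHLB, paired with its own WT table, held 1411 pericentromeric calls. Their scaled occupancy ratio had a median of 0.927 (95% interval 0.906 to 0.940), against 0.998 in the calls 10 to 50 kb away. There, 19.6% of the pericentromeric calls had moved by 10 bp or more, against 21.9% further out, and 12.9% passed the position test, against 16.8% further out. The median SD difference was 4 bp near the centromere and 3.81 bp further out, larger than in the ioc3Δ table. Because both mutant tables were counted as the same sample and share the WT, these values are no second measurement.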

How the data were processed

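Per the labels and the methods of the study, chromatin of WT, ioc3Δ and ioc3ΔcHLB cells was digested with micrococcal nuclease (MNase-seq) and mononucleosomal DNA was paired-end sequenced. The submitters' processing notes name Bowtie2 2.0 and the sacCer3 build. The authors used the midpoint of a read pair as the dyad, scaled dyad densities by the average coverage of the genome, merged the samples of a strain before calling nucleosomes and deposited, for each call of 147 bp, the dyad and mean dyad position, the SD of the dyads in bp (held here as a score) and the occupancy, a signal relative to coverage. WT and mutant calls were paired by the authors with a minimum overlap of 73 bp.

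The tables hold 53840 rows for ioc3Δ with its WT and 54446 for the table labelled ioc3ΔcHLB. Rows that repeated another (1911 and 1935) were dropped, as were 12 calls within the rDNA. Members and gene lists were chosen with earlier results of these data known. Distances were counted from the centromere positions of the membership rule, which lie at most 45.5 bp from the annotated midpoints, except that distances of the calls nearest to a centromere used the midpoints. Medians have distribution-free binomial 95% intervals and shares exact binomial ones, both of which treat calls as independent and cover variation among calls only. Intervals of the ratios of single calls cover counting error only, and fragments carry no molecular identifiers. The position test of the methods was rebuilt, because its formula is not given in the sources used here. It was a two-sided unequal-variance test that took occupancy as the number of observations and needed an occupancy of 2 in both strains. Occupancy is a scaled signal, lower in number than the fragments behind it. Adjusted p-values followed Benjamini and Hochberg over all tested calls. A +1 call was the first from 60 bp upstream to 120 bp downstream of the start codon, and each further call lay 110 to 230 bp on. Named calls were those next to each centromere, the 5 largest displacements past the test with both occupancies at or above the median, and the 3 largest rises and falls at a WT occupancy of at least 10. Named genes were the 5 with the largest downstream and 3 with the largest upstream +2 shifts past the test, of which no upstream one existed, and IOC3. The calculation was tested on simulated data. The alternatives tried were other windows, centromere midpoints, filters on occupancy and SD, the other mutant table, single chromosomes left out, means, the mean dyad column, other thresholds, scalings and neighbour distances. Calculations used scipy 1.17.1, numpy 2.4.6 and pandas 2.3.3 under Python 3.11.15, and plots matplotlib 3.10.9. RNA-seq and ChIP-seq were not analysed here. The sequence of 1 centromere is not reported here.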

Additional observations from a re-analysis of the deposited data

How the results depend on the processing

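Of 297 recalculated values, 268 stayed within the interval (or, for shares, within 1.5 times) of the reported one, 29 moved and 0 reversed direction. Most of them came from leaving out a single chromosome, which keeps most of the calls. A reversal could be recorded only for ratios and for signed values in bp whose reported value was not 0. For the other results the count of reversals carries no information. The occupancy ratio was below that of the calls 10 to 50 kb away in 27 of 28 alternatives. Most of these leave out a single chromosome, and 1 is the table labelled ioc3ΔcHLB, counted as the same sample. The other scalings multiply both windows by the same factor, so they could not change the order. The exception was the class of calls with the highest AT content (0.738 against 0.723), a split chosen after seeing the data. Outside that class the occupancy ratio was 0.991 against 1.07. It was 0.902 in a window of 5 kb, 0.943 in one of 20 kb, 0.954 with the occupancy filter, 0.985 as a mean (1.07 further out), 0.825 without scaling and 0.698 divided by the ratio of summed occupancies, a scaling that gave 0.572 for the calls nearest to the centromeres. With single chromosomes left out it ranged from 0.920 to 0.931, and the ratio of the nearest calls from 0.756 to 0.790. The ratio of the nearest calls was closer to 1 under both filters, 0.923 with the occupancy filter and 0.890 with the SD filter; 18 and 23 of the 32 calls passed these, and the next passing call outwards replaced each of the others.

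With the occupancy filter (lower quartile in both strains) the density was 3.15 calls per kb, the median WT occupancy 74.0 and the WT SD 24.4 bp. With calls of a WT SD at or under the median the density was 2.22 calls per kb, the WT occupancy 74.3, the WT SD 20.6 bp, the displacement 3 bp, the moved share 15.1% and the SD difference 3.31 bp; these filters act on the values themselves. Means in place of medians gave a WT occupancy of 87.6, a displacement of 8.99 bp, a spacing change of 1.34 bp (as further out) and a +2 shift of 6.23 bp. The WT SD was 25.1 bp within 5 kb, and the SD difference 2.40 bp within 20 kb. A size rule of 5 bp gave 49.4% moved calls (50.3% further out) and one of 20 bp 12.4% (13.3% further out). With 3 observations per strain 0% of the calls passed the position test, so the share past it rests on occupancy as the number of observations. In the table labelled ioc3ΔcHLB the SD difference was 4 bp and the +2 shift 3 bp; the cause was not tested. Leaving out calls within 1 kb gives no value for the nearest calls. A sample cannot be omitted from merged tables. No paired analysis was possible because the tables are merged over the samples of each strain and carry no replicate.

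Depth limits single calls: the members with the fewest fragments had 3 in ioc3Δ and 2 in WT.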
